A study of Mus musculus with 4 samples.

Results

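The Sox transcription factors examined here are 10 genes (Sox1, Sox2, Sox4, Sox5, Sox6, Sox8, Sox9, Sox10, Sox11 and Sox12) chosen by their symbols from a table of 55487 genes. RNA was measured in nuclei sorted from the whole brain, olfactory bulb left out, of adult wild-type mice, with 2 libraries of excitatory neuron nuclei and 2 of inhibitory neuron nuclei, all labelled as 1 batch. Nuclei were collected by fluorescence-activated sorting, and the sort markers, the exact age and the animals behind each library were not stated in the labels. Nuclear RNA was depleted of ribosomal RNA, not selected for poly(A), and the library kit keeps the strand, so unspliced transcripts can be part of what was measured. Values are TPM, transcripts scaled to a fixed total per library, in which the authors divided out gene length and depth. The depth of each library is therefore unknown, and a value of 0 is given only as listed at 0.

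Sox proteins bind the minor groove of DNA through a high-mobility-group box and bend it, mostly together with partner factors. They fall into subgroups. SoxB1 proteins (Sox1, Sox2) keep neural progenitors undifferentiated and SoxC proteins (Sox4, Sox11, Sox12) act in newborn neurons. SoxD proteins (Sox5, Sox6), which lack an activation domain of their own, time the fates of deep-layer cortical neurons and of interneurons. SoxE proteins (Sox8, Sox9, Sox10) specify glia, with Sox9 typical of astrocytes and Sox10 of the oligodendrocyte lineage.

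The sorted populations carried their labels' markers. Of 8 tested genes of excitatory identity 7 were higher in excitatory nuclei, with Slc17a7, a vesicular glutamate transporter, at 366 ± 1.46 against 56.2 ± 5.67 TPM (SD, n = 2), while Slc17a6, the transporter typical of thalamus and brainstem, was higher in inhibitory nuclei. All 8 tested genes of inhibitory identity were higher in inhibitory nuclei, of 9 listed. The inhibitory libraries also held more RNA of striatal neurons (9 of 10 marker genes higher, summed TPM 1116 and 1164 against 382 and 394), of Purkinje cells (6 of 7) and of cerebellar granule cells (5 of 8). Markers of these regions thus moved with the groups, and their part in the Sox differences was not tested. In bulk nuclei, fewer cells of a type and less RNA per cell cannot be told apart.

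All 10 Sox genes reached at least 1 TPM in at least 2 libraries and were tested. Sox5 was higher in excitatory nuclei, Sox6, Sox1 and Sox2 were higher in inhibitory nuclei, and the other 6 were not called (limma on log2(TPM + 1), Benjamini-Hochberg adjusted p under 0.05 over 26055 genes). The 1 gene higher in excitatory nuclei stands beside 5.43% of all genes tested, and the 3 higher in inhibitory nuclei beside 6.62%. In either direction 12.0% of all genes were called. The libraries of the groups did not overlap for 6 of the 10 Sox genes, against 56.2% of all genes. Both excitatory libraries were above both inhibitory ones for 3 of the 10 (23.0% of all genes), and both inhibitory ones were above for the other 3 (33.3% of all genes), so separation of the libraries alone was about as frequent among Sox genes as elsewhere. The median log2 fold change was -0.09 over the Sox genes and -0.07 over all genes tested. With 2 libraries a group, an exact two-sided permutation test cannot go below p = 0.333, and nothing in the labels says that each library had its own animals, so the p-values cover just the scatter of these 4 libraries, which may be technical. With any 1 library left out, limma called 0 of the 26055 genes and so none of the 10 (adjusted p between 0.0614 and 0.0731 for Sox5 and between 0.0631 and 0.0690 for Sox6), with all 4 called genes keeping their direction.

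**Figure D1:**
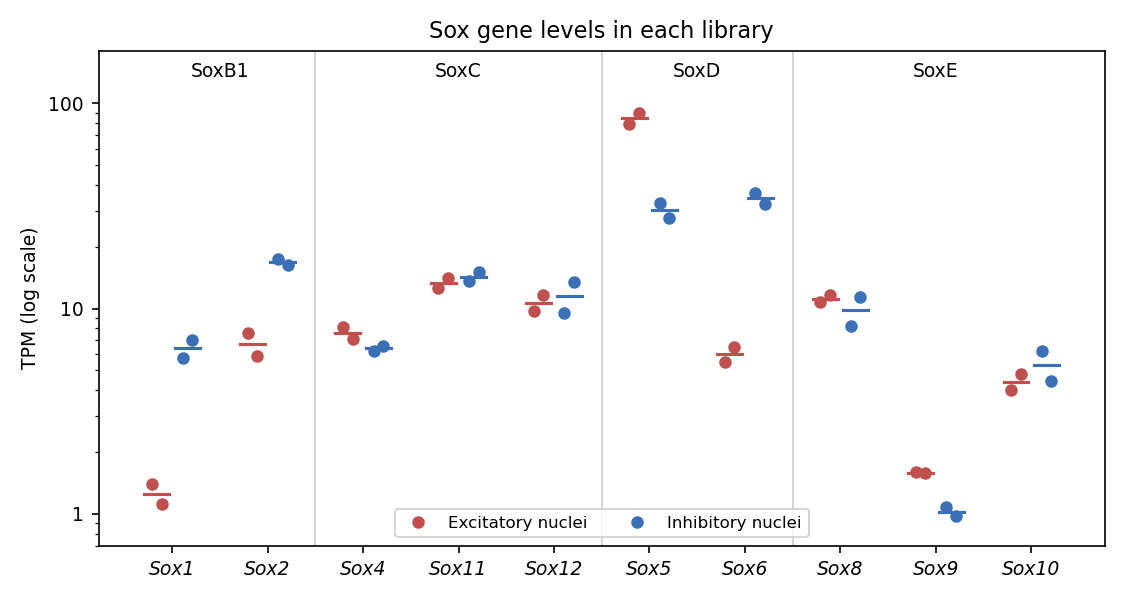
TPM of each Sox gene in each of the 4 libraries on a log axis, grouped by Sox subgroup; points are libraries and short horizontal lines are means of 2. Sox5 stood at 79.0 and 89.5 TPM in excitatory libraries, and Sox6 at 36.7 and 32.2 TPM in inhibitory ones, while no SoxC or SoxE gene was called.

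The SoxD genes moved in opposite directions, and Sox6 had the largest log2 fold change among the 10. Sox5, which in development controls the timing of deep-layer corticofugal neurons, had 79.0 and 89.5 TPM in the excitatory libraries and 32.7 and 27.6 TPM in the inhibitory ones. Both excitatory libraries stood above both inhibitory ones. The mean was 2.79-fold higher in excitatory nuclei (84.2 ± 7.42 against 30.1 ± 3.56 TPM, SD, n = 2), and the log2 fold change was 1.45 ± 0.14 (SE, limma adjusted p = 0.00359). Sox6, needed for the positioning and maturation of interneurons from the medial ganglionic eminence, had 5.49 and 6.48 TPM in excitatory libraries and 36.7 and 32.2 TPM in inhibitory ones. Again the groups did not overlap. The mean was 5.76-fold higher in inhibitory nuclei (5.98 ± 0.702 against 34.4 ± 3.13 TPM), and the log2 fold change was -2.34 ± 0.18 (limma adjusted p = 0.00262).

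Set side by side, Sox5 was far above Sox6 in excitatory nuclei and about level with it in inhibitory nuclei. The TPM ratio of Sox5 to Sox6 was 14.4 and 13.8 in the excitatory libraries and 0.891 and 0.857 in the inhibitory ones. On the log2(TPM + 1) scale the difference between both genes changed by 3.80 between the groups. The exact permutation test gave p = 0.333, the smallest it can give with 4 libraries, and adjusted p = 0.5 over the 6 pairs of subgroup members compared. In inhibitory nuclei the ranges of Sox5 and Sox6 overlapped (27.6 to 32.7 and 32.2 to 36.7 TPM), and they were the 2 most abundant Sox RNAs there.

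Promoter windows of both SoxD genes are shown because these genes moved in opposite directions, together with those of Sox2, which moved with Sox6, and of Sox11, which was not called. The windows hold the 250 bases before a RefSeq start (GRCm38.p6, the mm10 assembly), 5′ to 3′ on the gene's strand. They were read from a table with windows for 8 of the 10 genes, and none of those printed overlaps an annotated exon in GENCODE M21. The Sox5 and Sox6 starts shown lie inside the annotated genes, downstream of their first exons. The Sox5 start, at 143947106, is far from the gene's 5′ end at 144781977. This was the only Sox5 window available, so the letters at the 5′ end of Sox5 were not examined. Capitals mark the hexamers ACAAAG or ACAATG, cores of Sox binding motifs, on either strand, so that CTTTGT is the first of them read on the other strand.
Sox5 (chr6:143947107-143947356, minus strand): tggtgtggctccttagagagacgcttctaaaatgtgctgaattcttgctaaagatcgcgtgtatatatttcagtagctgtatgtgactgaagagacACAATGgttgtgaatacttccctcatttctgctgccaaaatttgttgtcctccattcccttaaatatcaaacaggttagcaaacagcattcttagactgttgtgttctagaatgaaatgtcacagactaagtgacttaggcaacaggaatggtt
Sox6 (chr7:116031048-116031297, minus strand): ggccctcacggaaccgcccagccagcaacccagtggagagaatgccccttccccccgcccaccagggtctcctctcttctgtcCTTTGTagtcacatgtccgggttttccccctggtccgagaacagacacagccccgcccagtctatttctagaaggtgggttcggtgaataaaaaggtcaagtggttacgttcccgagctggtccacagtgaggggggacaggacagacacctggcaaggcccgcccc
Sox6, a start further into the gene (chr7:115824711-115824960, minus strand): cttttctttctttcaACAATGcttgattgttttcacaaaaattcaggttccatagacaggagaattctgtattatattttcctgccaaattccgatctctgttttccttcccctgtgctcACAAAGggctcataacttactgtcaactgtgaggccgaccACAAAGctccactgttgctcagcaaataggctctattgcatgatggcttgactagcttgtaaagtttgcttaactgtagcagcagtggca
Sox2 (chr3:34649745-34649994, plus strand): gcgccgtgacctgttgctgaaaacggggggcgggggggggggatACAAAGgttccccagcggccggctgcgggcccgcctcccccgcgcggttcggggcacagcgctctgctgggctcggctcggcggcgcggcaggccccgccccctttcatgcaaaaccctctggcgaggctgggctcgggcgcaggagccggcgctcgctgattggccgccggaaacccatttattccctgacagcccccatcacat
Sox11 (chr12:27342719-27342968, minus strand): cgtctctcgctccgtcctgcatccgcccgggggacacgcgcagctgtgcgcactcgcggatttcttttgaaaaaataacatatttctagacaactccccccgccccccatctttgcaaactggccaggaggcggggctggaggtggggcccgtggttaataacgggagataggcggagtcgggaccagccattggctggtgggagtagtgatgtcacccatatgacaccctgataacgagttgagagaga

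Searched on both strands, ACAAAG occurred in 16.5% and ACAATG in 10.7% of 32851 promoter windows of the same length. The Sox5 window held 1 copy of ACAATG, 154 bases before the start. The first Sox6 window held 1 copy of ACAAAG and the second held 2 copies of ACAAAG and 1 of ACAATG. Of the 6 Sox6 windows in the table, 5 had at least 1 of these hexamers, both printed ones among them. The share of all windows with at least 1 of either hexamer was not computed, so no excess can be read from this count. The Sox2 window had 1 copy of ACAAAG, 206 bases before the start, and the Sox11 window had neither. The POU octamer ATGCAAAT, found in 1.6% of all windows, occurred once among the windows of these genes, in that of Sox12, 195 bases before its start. The windows also differed in base composition, with 39.6% GC for Sox5, 60.8% and 41.6% for the Sox6 windows shown, 72.0% for Sox2 and 58.0% for Sox11, against a median of 52.4% over all windows. These are matches of letters, and no binding or methylation was measured here.

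Both SoxB1 genes were higher in inhibitory nuclei. Sox1, which in mouse also serves the formation of ventral striatal neurons, had 1.40 and 1.11 TPM in excitatory libraries and 5.76 and 7.05 TPM in inhibitory ones. The inhibitory libraries stood above the excitatory ones without overlap, 5.10-fold in the mean (log2 fold change -1.71 ± 0.28, limma adjusted p = 0.0168). Sox2, the progenitor and pluripotency factor that also remains in adult glia, had 7.61 and 5.87 TPM in excitatory libraries and 17.4 and 16.3 TPM in inhibitory ones. The groups were apart again, with a mean 2.49-fold higher in inhibitory nuclei (log2 fold change -1.21 ± 0.21, limma adjusted p = 0.0201). Without the filter on low values, in a fit of 37740 genes, both SoxB1 calls were lost (limma adjusted p = 0.0582 for Sox1 and 0.0549 for Sox2), while Sox5 and Sox6 stayed called.

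Sox2 is also a gene of astrocytes, so their markers are given beside it. Of 12 astrocyte markers none was higher in inhibitory nuclei and 1 was higher in excitatory nuclei, the glutamate transporter gene Slc1a2 (394 ± 50.0 against 86.9 ± 2.68 TPM). The 12 markers summed to 638 and 639 TPM in excitatory and 362 and 298 TPM in inhibitory libraries, with a median log2 fold change of 0.35. Without Slc1a2 the other 11 summed to 279 and 209 TPM in excitatory and 277 and 210 TPM in inhibitory libraries. Their median log2 fold change was 0.34. The glutamine synthetase gene Glul had 100.2 and 64.9 TPM against 106 and 68.5 TPM, and the aldolase gene Aldoc 68.6 and 42.2 TPM against 88.3 and 72.3 TPM. Neither was called, and both had the higher mean in inhibitory nuclei, opposite to the median of the list. The part of astrocyte RNA in the Sox2 values was not tested. Of 13 genes of neural progenitors 10 were tested, and 1, the Notch target Hes1, was called and stood higher in excitatory nuclei (11.7 ± 2.58 against 3.04 ± 1.41 TPM), a call lost without the filter (adjusted p = 0.0869). Nes, the progenitor intermediate filament gene, was at or under 0.137 TPM in every library.

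In the mm10 annotation GENCODE M21, from which all gene positions here come, Sox1 and Sox2 each lie inside an intron of a longer RNA gene on the same strand. Sox1 (chr8:12395295-12400126, plus strand, a single exon) sits within Sox1ot (chr8:12385771-12436768), and Sox2 (chr3:34650405-34652461, plus strand, a single exon) within Sox2ot (chr3:34104270-34682619), a long noncoding RNA gene. Neither shares exonic bases with its host. Sox1ot had 1.02 and 0.994 TPM in excitatory and 7.58 and 8.30 TPM in inhibitory libraries, 7.88-fold higher in inhibitory nuclei (log2 fold change -2.15 ± 0.27, limma adjusted p = 0.00709). Sox2ot had 18.6 and 23.1 TPM in excitatory and 84.6 and 83.1 TPM in inhibitory libraries, 4.02-fold higher in inhibitory nuclei (log2 fold change -1.97 ± 0.14, limma adjusted p = 0.00212). Host and inner gene were thus higher in the same libraries. Unspliced RNA of the host covers the inner gene in the same orientation, so reads of the host could be counted for Sox1 and Sox2, and their part in the Sox1 and Sox2 values was not tested. The ratio of Sox2ot to Sox2 was 2.44 and 3.93 in the excitatory libraries and 4.87 and 5.11 in the inhibitory ones, and that of Sox1ot to Sox1 was 0.730 and 0.894 against 1.32 and 1.18.

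**Figure D2:**
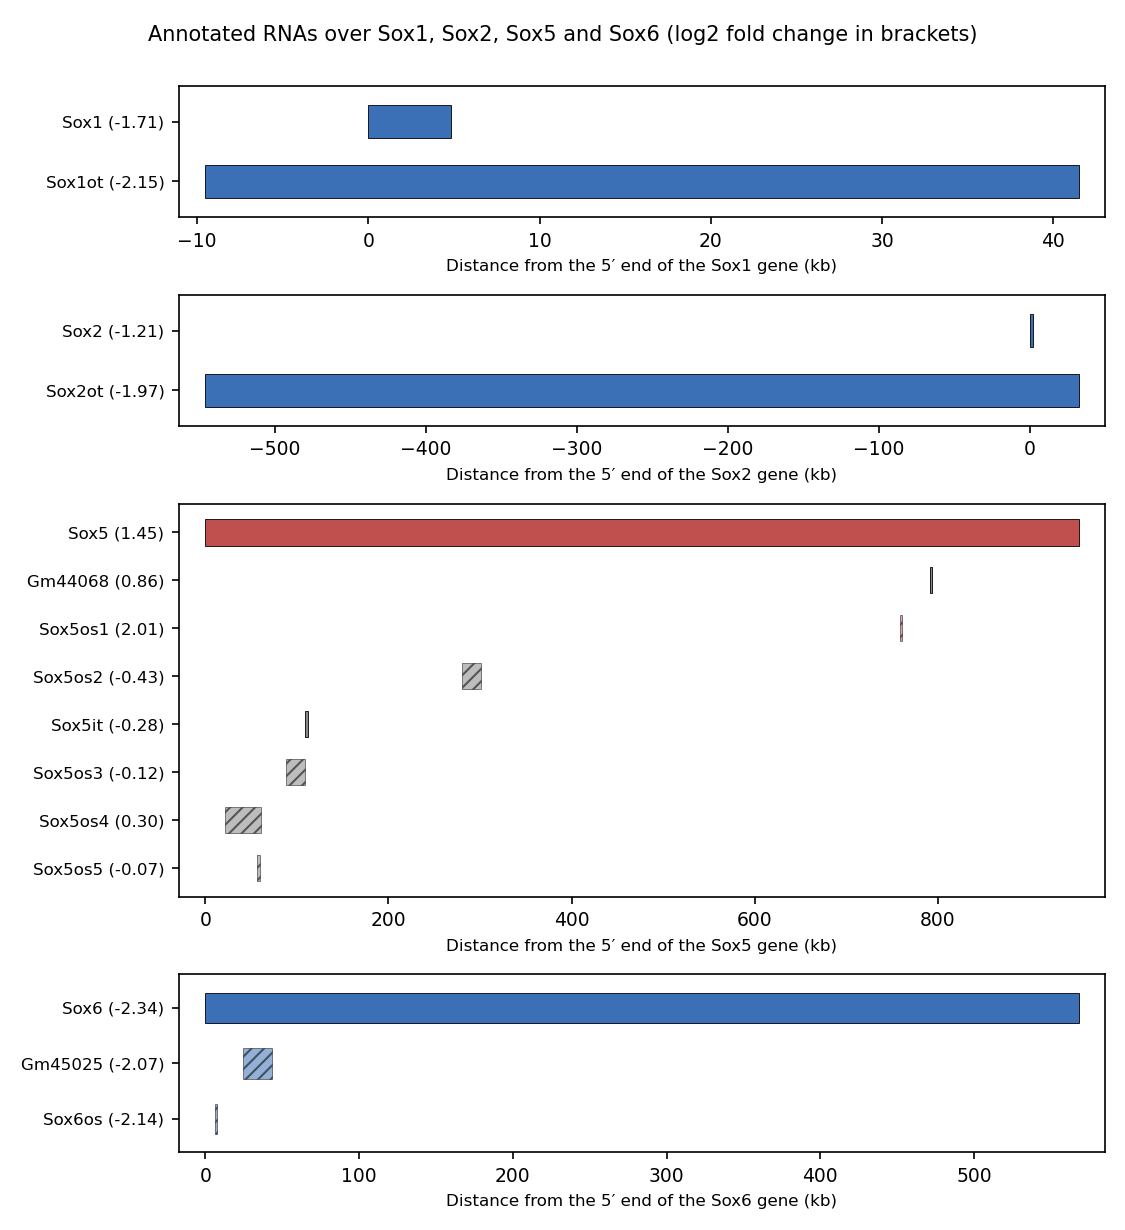
Tested RNA genes annotated over Sox1, Sox2, Sox5 and Sox6, drawn by distance from the 5′ end of each Sox gene in kb. Solid bars lie on the Sox gene's strand and hatched bars on the other strand. Gm25239, a microRNA gene that shares 86 exonic bases with Sox1, was not tested and is not drawn. Red marks genes higher in excitatory nuclei, blue genes higher in inhibitory nuclei and grey genes not called, with log2 fold changes in brackets; Sox1ot (-2.15) and Sox2ot (-1.97) are blue like their inner genes, and of the 7 RNA genes within Sox5 only Sox5os1 is red.

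The long SoxD genes contain further RNA genes. Sox5 spans 953553 bases (chr6:143828425-144781977, minus strand) and holds 7 annotated RNA genes, 5 on the other strand and 2 on its own. Sox5os1, an antisense RNA that lies 758 kb from the 5′ end of Sox5 and shares 1330 exonic bases with it, had 3.65 and 4.75 TPM in excitatory and 0.405 and 0.165 TPM in inhibitory libraries. Only its excitatory libraries reached 1 TPM, and it was higher in excitatory nuclei like Sox5 itself (log2 fold change 2.01 ± 0.31, limma adjusted p = 0.0134). No source used here gives the strand setting of the authors' counting, so reads of Sox5 and Sox5os1 may have been exchanged. Gm44068, on the same strand 791 kb from the 5′ end, had 4.50 and 6.64 TPM against 2.99 and 2.21 TPM and was not called (log2 fold change 0.86, limma adjusted p = 0.134). The other 5, Sox5it and Sox5os2 to Sox5os5, all lie within the first 301 kb, and none was called. Their log2 fold changes ran from -0.43 to 0.30, and their libraries overlapped between groups. Gm44068 and these 5 lie within introns of Sox5. Unspliced Sox5 RNA could thus be counted for Gm44068 and Sox5it, which lie on its strand. For Sox5os2 to Sox5os5 this would apply if counting ignored strand. The part of such reads in these values was not tested.

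Sox6 spans 567925 bases (chr7:115470872-116038796, minus strand) and holds 2 antisense RNA genes, neither with exonic bases in common with it. Both lie within its introns. If counting ignored strand, unspliced Sox6 RNA could be counted for them, and its part in their values was not tested. Gm45025, 24.7 to 43.5 kb from the 5′ end, had 0.914 and 1.01 TPM in excitatory and 8.43 and 6.16 TPM in inhibitory libraries (log2 fold change -2.07 ± 0.29, limma adjusted p = 0.0103). Sox6os, 6.25 to 6.82 kb from the 5′ end, was listed at 0 in excitatory replicate 1, had 1.31 TPM in excitatory replicate 2 and 6.70 and 4.86 TPM in the inhibitory libraries. Its log2 fold change was -2.14 ± 0.46 (limma adjusted p = 0.0358), a call lost with a pseudocount of 0.1 (adjusted p = 0.114) or 0.5 (0.0520), without the filter on low values (0.107) and with no trend in the variance prior (0.0624). Over all 10 Sox genes, 14 annotated genes overlapped 6 of them, 13 were matched in the table by identifier and 12 were tested. Of these 4 were higher in inhibitory nuclei, beside 6.62% of all genes tested. Sox5os1 was the 1 higher in excitatory nuclei, beside 5.43% of all genes tested, and 7 were not called.

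**Figure D3:**
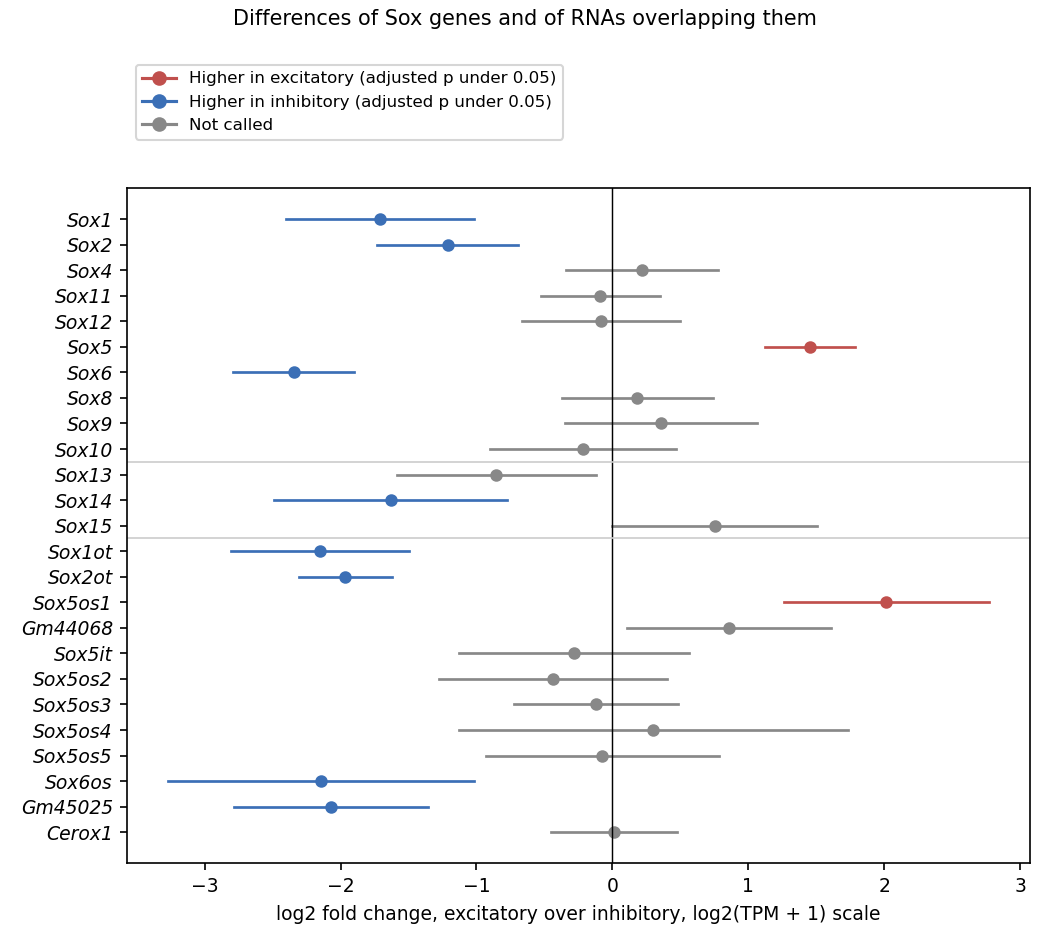
Log2 fold change between groups (positive where excitatory nuclei were higher, log2(TPM + 1) scale) and its 95% confidence interval from limma, for the 10 Sox genes (top), the 3 other family genes tested (middle) and the tested RNA genes that overlap a Sox gene of the 10 (bottom). Among the 10 Sox genes, the interval of Sox5 lies above 0, those of Sox1, Sox2 and Sox6 lie below it, and those of the SoxC and SoxE genes include it; the unadjusted intervals of Sox13 (-1.59 to -0.12) and Gm44068 (0.11 to 1.61) exclude 0 although neither gene passed the adjusted test.

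The SoxC genes, known from newborn neurons, were present in both adult populations, and none was called. Sox11 (chr12:27334264-27342574, minus strand) had 12.6 and 14.2 TPM in excitatory and 13.6 and 15.0 TPM in inhibitory libraries. Its libraries overlapped, and the 95% interval of the log2 fold change ran from -0.53 to 0.35. Sox12 (chr2:152393611-152398063, minus strand) had 9.71 and 11.7 TPM in excitatory and 9.52 and 13.5 TPM in inhibitory libraries, an overlap with an interval from -0.67 to 0.50. Sox4 (chr13:28948919-28953713, minus strand) had 8.15 and 7.07 TPM in excitatory and 6.21 and 6.59 TPM in inhibitory libraries. Both excitatory values of Sox4 were the higher ones, but the log2 fold change of 0.22 ± 0.23 was not called (limma adjusted p = 0.605). A difference of up to 0.77 on the log2 scale lies within its interval, so equal levels were not shown. Sox4 shares 2616 exonic bases with an RNA gene on the other strand, Gm26735, which was not analysed here. In all 4 libraries Sox11 was above Sox4, with a ratio of Sox4 to Sox11 of 0.65 and 0.50 in excitatory and 0.46 and 0.44 in inhibitory nuclei.

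Other genes of immature neurons were counted beside the SoxC genes. Of 11 listed 8 were tested, and 1 was called, Stmn1, which encodes a tubulin-binding protein (133 ± 10.7 against 72.9 ± 2.95 TPM, higher in excitatory nuclei). Dcx, the doublecortin gene of migrating neurons, stood between 61.9 and 78.8 TPM in the 4 libraries. The median log2 fold change of the list was -0.04.

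None of the SoxE genes, best known from glia, was called. Sox8 (chr17:25565892-25570686, minus strand) was the highest, with 10.8 and 11.6 TPM in excitatory and 8.24 and 11.4 TPM in inhibitory libraries. Sox10 (chr15:79154908-79165240, minus strand), the myelination factor, had 4.01 and 4.78 TPM in excitatory and 6.22 and 4.43 TPM in inhibitory libraries. Both genes overlapped between the groups. Sox9 (chr11:112782224-112787760, plus strand), the astrocyte factor, had 1.59 and 1.58 TPM in excitatory and 1.08 and 0.974 TPM in inhibitory libraries. Its excitatory values were the higher ones, and the log2 fold change was 0.35 ± 0.29 (limma adjusted p = 0.490, 95% interval -0.35 to 1.06). The share of genes tested with a mean at or under that of Sox9 was 11.2% in excitatory and 4.41% in inhibitory nuclei.

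Glial RNA was present in all libraries beside the SoxE genes. None of 13 oligodendrocyte genes, the genes of myelin and its maintenance, was called, and their summed level was 491 and 410 TPM in excitatory and 438 and 316 TPM in inhibitory libraries. None of 7 tested genes of oligodendrocyte precursors was called, with sums of 56.1 and 38.2 TPM against 52.5 and 37.8 TPM. Whether the Sox8, Sox9 and Sox10 reads came from neurons or from such glial RNA was not tested. Sox8 overlaps the antisense RNA gene Cerox1 over 329 exonic bases, and Cerox1 stood at 15.1 ± 1.71 against 15.0 ± 2.01 TPM, so the Sox8 value is uncertain if counting ignored strand.

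Summed over the 10 genes, Sox RNA came to 140.3 and 154 TPM in excitatory and 137 and 135 TPM in inhibitory libraries. Its makeup differed more than its total. Sox5 took 56.3% and 58.2% of the sum in excitatory libraries and 23.8% and 20.5% in inhibitory ones. Sox6 took 3.91% and 4.21% against 26.7% and 23.9%, and Sox2 took 5.43% and 3.82% against 12.6% and 12.0%. Since the shares of a library sum to a whole, a lower Sox5 share raises the others. In excitatory nuclei the order from the highest mean was Sox5, Sox11, Sox8, Sox12, Sox4, Sox2, Sox6, Sox10, Sox9 and Sox1, and libraries overlapped between neighbours from Sox8 to Sox12 and from Sox4 through Sox2 to Sox6. In inhibitory nuclei it was Sox6, Sox5, Sox2, Sox11, Sox12, Sox8, Sox1, Sox4, Sox10 and Sox9, with overlaps between Sox6 and Sox5, Sox12 and Sox8, and from Sox1 through Sox4 to Sox10.

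**Figure D4:**
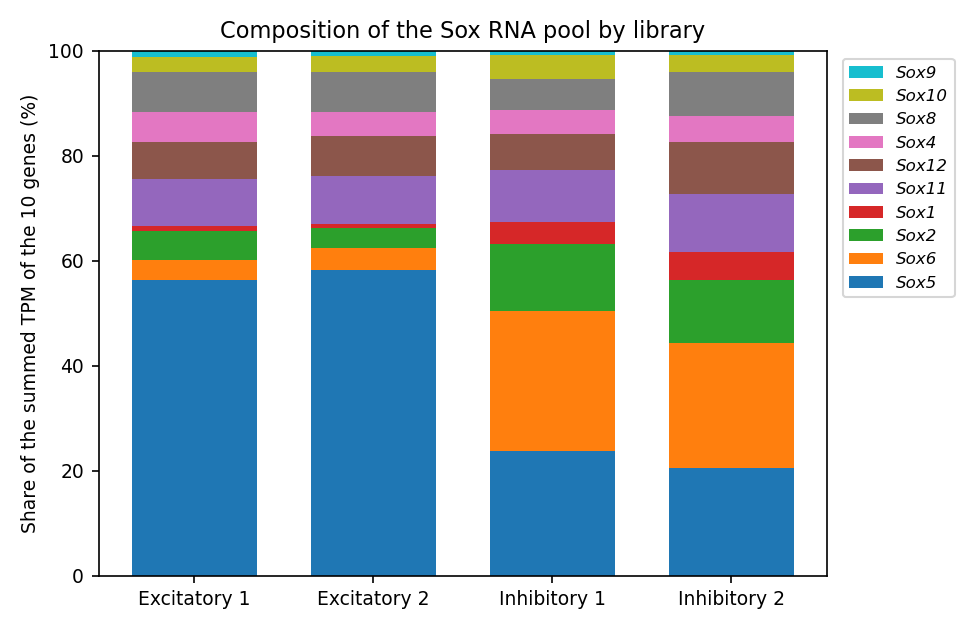
Share of each Sox gene in the summed TPM of the 10 genes, one bar per library. Sox5 fills 56.3% and 58.2% of the excitatory bars and 23.8% and 20.5% of the inhibitory ones, where Sox6 takes 26.7% and 23.9%.

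Of the 10 other Sox family genes, 7 stayed under 1 TPM in every library and were not tested. Among these Sox17 and Sry were listed at 0 throughout, and Sox18 was listed at 0 in both inhibitory libraries and stood at 0.392 and 0.720 TPM in excitatory ones. Sox17, Sox18 and Sox7 form the SoxF subgroup of blood vessels, and 9 of 10 endothelial markers were likewise too low to test. Sox14, a factor of thalamic and midbrain GABA neurons, was higher in inhibitory nuclei, with 0.473 and 0.0928 TPM in excitatory and 2.27 and 3.73 TPM in inhibitory libraries (log2 fold change -1.63 ± 0.35, limma adjusted p = 0.0356). Only its inhibitory libraries reached 1 TPM, and the call was lost without the filter (adjusted p = 0.0807) or with a pseudocount of 0.1 (0.0614). Sox13, the remaining SoxD gene, had 1.91 and 1.78 TPM against 4.99 and 3.42 TPM, apart in the direction of Sox6 but not called (limma adjusted p = 0.128). Sox15 stood at 2.25 and 2.10 TPM against 1.16 and 0.649 TPM and was not called either.

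Genes that act with or beside the Sox factors were read from lists. Of 13 genes of interneurons from the medial ganglionic eminence, the cells in which Sox6 acts downstream of Lhx6, 12 were tested. Of these 9 were higher in inhibitory nuclei, 2 of the 12 having passed the filter only through inhibitory libraries, and the median log2 fold change was -2.01. Lhx6 stood at 1.44 ± 0.187 against 16.1 ± 4.23 TPM, the neuropeptide gene Sst at 15.8 ± 1.98 against 119 ± 16.8 TPM, and the large Maf factor gene Maf at 9.10 ± 0.482 against 35.0 ± 3.07 TPM. Satb1, a chromatin organizer picked once its values were known, was the 1 gene of the list higher in excitatory nuclei (log2 fold change 0.92, limma adjusted p = 0.00714).

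Of 11 genes of cortical projection neurons, where Sox5 acts with Fezf2 and Tbr1 in the choice of corticofugal fates, 5 were higher in excitatory and 1 in inhibitory nuclei, with a median log2 fold change of 0.59. Fezf2, the subcerebral factor, stood at 26.6 ± 2.23 against 2.61 ± 0.147 TPM, and Tbr1, the layer 6 factor, at 30.1 ± 4.70 against 4.67 ± 0.0585 TPM. Foxp2, a corticothalamic marker that striatal and Purkinje neurons share, was higher in inhibitory nuclei (34.6 ± 0.184 against 91.2 ± 0.665 TPM).

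All 7 partners of SoxB1 proteins listed, POU factors, Pax6 and the chromatin remodeller Chd7, were tested, and 3 were higher in inhibitory nuclei like Sox1 and Sox2. Chd7 stood at 14.4 ± 1.83 against 33.2 ± 0.605 TPM (log2 fold change -1.16, limma adjusted p = 0.00886). Pax6 stood at 7.44 ± 0.344 against 17.4 ± 2.98 TPM and Pou3f4 at 1.53 ± 0.566 against 5.64 ± 0.0878 TPM. Without the filter on low values both of these calls were lost (limma adjusted p = 0.0601 and 0.0915), as were those of Sox1 and Sox2. Pou3f1, Pou3f2 and Pou3f3 had log2 fold changes between 0.46 and 0.57 and were not called. The list's median was -0.31.

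Of 7 midbrain and thalamic GABA genes, relatives in expression of Sox14, 6 were tested and 4 were higher in inhibitory nuclei, but 5 of the 6 had passed the filter only through inhibitory libraries. Lhx5, a LIM homeobox gene, was at 0.317 ± 0.00174 against 3.65 ± 0.0955 TPM. None of 8 microglial and none of 3 tested mural genes was called. Over the 17 lists, which share some genes, 133 of 153 distinct genes were tested. Of these, 14 were higher in excitatory nuclei, beside 5.43% of all genes tested, and 43 in inhibitory nuclei, beside 6.62%. The lists include markers of cell identity and region and were chosen with earlier results of these data known. Their counts are therefore no result about genes that act with Sox factors.

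**Figure D5:**
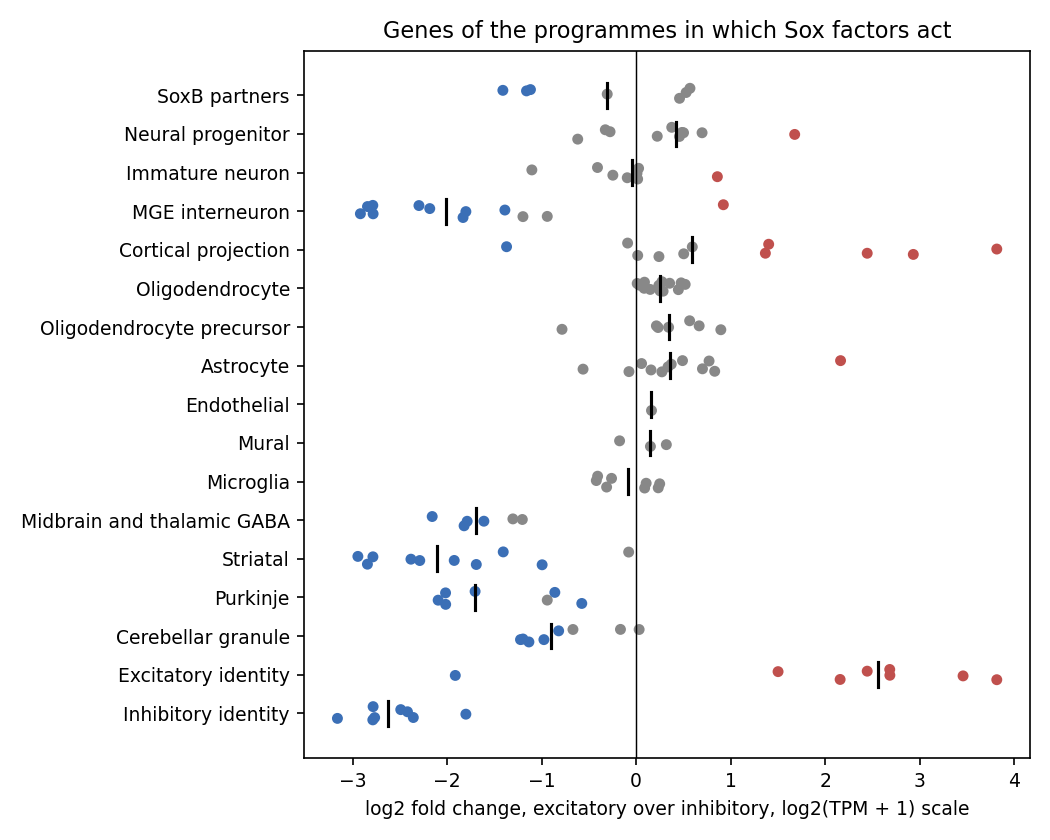
Log2 fold change, excitatory over inhibitory, of each tested gene in the lists, one row per list with the list median as a vertical tick; red and blue points passed the test and grey points did not. Medians lay at -2.01 for the interneuron list and 0.59 for the cortical projection list, and no oligodendrocyte or microglial gene passed.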

How the data were processed

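RNA was sequenced from sorted excitatory and inhibitory nuclei, 2 libraries each, and samples were grouped by their labelled cell type. The authors deposited 1 table of TPM values per gene, per the labels, in which gene length and library depth are divided out. The submitters' processing notes name fastp 0.23.4, HISAT2 2.2.1, Bowtie2 2.3.5, StringTie 2.2.1 and the mm10 build. The sources used here give no role for each tool, no annotation release and no strand setting. TPM columns summed to between 999833 and 999891, and between 32207 and 32836 genes were above 0 per library. Read depth is unknown, so no counting interval can be given. Pearson's r across genes, on log2(TPM + 1), was 0.967 and 0.968 within the groups and 0.916 to 0.923 between them.

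Genes at or above 1 TPM in 2 or more libraries were fitted with limma 3.58.1 in R 4.3.3 (empirical Bayes with a variance trend) on log2(TPM + 1), two-sided, and p-values were adjusted by Benjamini-Hochberg over 26055 genes. Fold is the ratio of mean TPM, and a log2 fold change on this scale understates the change of low genes. On simulated data of 26055 genes for this comparison, 100 of 100 genes with a log2 change of 2 and 91 of 100 with a log2 change of 1 were called. The changed genes were drawn only from those averaging above 5 TPM on this log scale. These rates therefore do not cover lower genes such as Sox1, Sox9 and Sox10. The simulated noise followed a trend over the mean, with no further spread of variance between genes. Ratios of Sox genes were tested by exact permutation of the samples. Gene positions and overlaps came from GENCODE M21, and promoter windows and their letters from RefSeq. Protein sequences were not used here.

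The text names the 10 Sox genes, the other 10 family genes, the genes overlapping a member and, of each list, up to 4 genes with the smallest p plus those a cell type check needs; some genes this rule would name are not reported here. Members and lists were chosen with earlier results of these data known. Alternatives were the pseudocount, the filter, the variance trend, the scaling, a replicate block and leaving out each library.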

Additional observations from a re-analysis of the deposited data

How the results depend on the processing

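Sox5, Sox6, Sox1 and Sox2 kept their direction in every alternative run. With 1 library left out, limma called 0 of 26055 genes (smallest adjusted p between 0.0545 and 0.0664, and 5311 to 5812 genes at an unadjusted p under 0.05), so the Sox genes called numbered 0 to 0 in each direction and the related genes called fell from 57 to 0. These fits leave 1 residual degree of freedom and assume that a lone library varies like the other group. When the filter was applied anew to the remaining 3 libraries, an alternative chosen after seeing the data, Sox5 (adjusted p 0.00242 to 0.0111) and Sox6 (0.00253 to 0.00514) were called each time. The Sox genes higher in inhibitory nuclei then numbered 1 to 3, 1 without excitatory replicate 2 or inhibitory replicate 2. Over all genes, without excitatory replicate 1 or 2 or inhibitory replicate 1 or 2 in turn, 813, 604, 893 and 1039 were then higher in excitatory and 1064, 1085, 871 and 800 in inhibitory nuclei. Without the filter on low values 1 Sox gene was higher in inhibitory nuclei, in place of 3, and over all genes 666 were higher in excitatory and 740 in inhibitory nuclei, in place of 1414 and 1725, in a fit of 37740 genes. The cause was not tested. At 5 TPM or more, 8 of the 10 Sox genes could be fitted. Directions reversed for Sox8 without inhibitory replicate 1 (log2 fold change -0.029 with either filter), over a range of -0.029 to 0.40 with 1 library left out, and for Sox12 under quantile normalization (0.0085), without excitatory replicate 1 (0.037 with either filter) and without inhibitory replicate 2 (0.15), over a range of -0.31 to 0.15. The log2 ratio difference reversed for Sox9 to Sox8 without inhibitory replicate 2 (-0.079, range to 0.42) and for Sox8 to Sox10 without inhibitory replicate 1 (-0.015, range to 0.82). None of these was called in any fit. Replicate numbers do not pair the samples in the labels, and same-numbered samples' deviations correlated at 0.0957 with 2 numbers. A replicate block moved the calls over all genes from 3139 to 4328 and left the Sox counts at 1 and 3. Median-ratio scaling moved the median log2 fold change of all genes from -0.07 to -0.00. Unknown read depth limits what can be said of genes near 1 TPM, such as Sox9 and Sox1.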
